A study of Mus musculus with 2 samples.

Results

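The CC chemokine ligands described here are Ccl2, Ccl3, Ccl4, Ccl6, Ccl7, Ccl9, Ccl17, Ccl22 and Ccl24, 9 genes taken by name from the 32285 genes measured, and UMIs of all 9 were found in both libraries. They were single-cell RNA libraries of myeloid-derived suppressor cells (MDSCs). The cells came from 10-week-old C57BL/6 females, whose bone marrow was kept for 4 days in 50 ng/mL GM-CSF plus 50 ng/mL IL-6, and either dabrafenib (DAB, a BRAF kinase inhibitor, at 1.5 µM) or the solvent DMSO was added. Each condition gave 1 library, made with the 10x Genomics 5′ chemistry, so the labelled difference is the drug, with strain, sex, age and both cytokines shared, and the drug cannot be told apart from the culture, capture and sequencing of its library. How many mice went into a library was not stated in the sources used, and the cells were cultured outside the animal.

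CC chemokines are small secreted proteins with adjacent cysteines near the amino end that guide leukocytes through G protein-coupled receptors. Ccl2 and Ccl7 draw monocytes through Ccr2, Ccl3 and Ccl4 attract monocytes and lymphocytes at sites of inflammation, and the rodent ligands Ccl6 and Ccl9 act on Ccr1. Ccl17 and Ccl22 share the receptor Ccr4, which is carried by type 2 helper and regulatory T cells, and Ccl24, an eotaxin, attracts eosinophils through Ccr3. Myeloid-derived suppressor cells are both a source of such ligands and a target of them.

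After filtering, 9032 DMSO cells (92410603 UMIs, median 7539.5 per cell) and 10476 DAB cells (141281712 UMIs, median 9569.5) were compared. The libraries shared 122 cell barcodes, and leaving these out moved no direction reported over all cells. Cells were clustered without any Ccl or Cxcl gene, so that the ligands did not shape the clusters. Granulocyte and monocyte classes, the forms of MDSC, were found in both libraries, as were macrophage-like, activated dendritic-like, basophil or mast-like and B cell-like cells. Clusters were named from marker lists that hold no ligand and no CC receptor. Clusters without a name held 51.6% of DMSO and 63.3% of DAB cells and are called by letter and by their leading genes. Levels are counts per 1e6 UMIs (CPM) computed from the sum of all cells in a library or class. With 1 library per condition no test was possible and there are no replicates. Intervals are exact 95% intervals for counting error alone, and a gene is called higher or lower in DAB only where the log2 ratio (DAB over DMSO) reaches 0.5 in either direction and its interval does not hold 0.

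Over all cells, the monocyte attractants Ccl2 and Ccl7, with Ccl4 and Ccl6, were higher in the DAB library (4 of 9, against 13.6% of the 16361 genes with at least 20 UMIs), whereas Ccl17, Ccl22 and Ccl24 were lower (3 of 9, against 16.7% of genes). No direction was read for Ccl3 or Ccl9. The 9 genes together made up 0.698% of all UMIs in DMSO and 0.918% in DAB, and their median log2 ratio was 0.35, beside -0.03 over all genes counted.

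**Figure D1:**
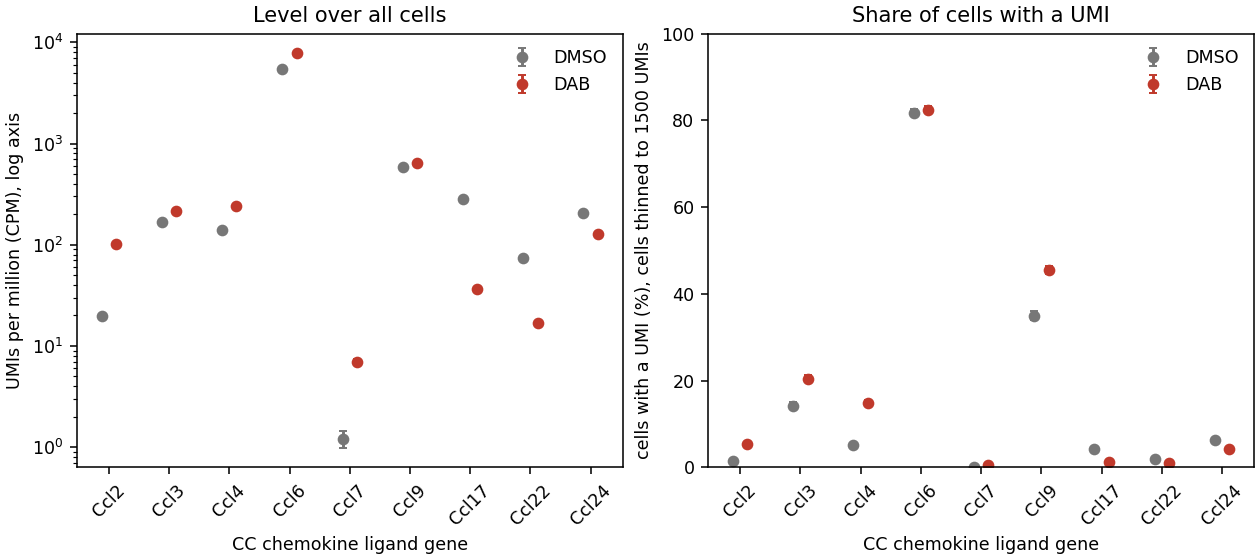
Left, level of each ligand over all cells (CPM, log axis) and right, share of cells with a UMI after thinning to 1500 UMIs per cell, for the DMSO (grey) and DAB (red) library; bars are exact 95% intervals for counting error. Ccl2 and Ccl7 lie higher in DAB on the left, and Ccl17, Ccl22 and Ccl24 lie lower on both sides.

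Ccl2 (ENSMUSG00000035385, chromosome 11, 82035571 to 82037453, plus strand, GRCm38) was present at 19.7 CPM in DMSO (18.8 to 20.6) and at 100.6 CPM in DAB (98.99 to 102.3). The level was thus 5.11-fold higher in DAB, a log2 ratio of 2.35 (2.28 to 2.42). Its neighbour Ccl7 (ENSMUSG00000035373, 82045712 to 82047525, plus strand) starts 8258 bases further on and moved in the same direction from a much smaller number of molecules. Ccl7 gave 111 UMIs in 33 DMSO cells and 984 UMIs in 113 DAB cells, 1.201 and 6.96 CPM, with a log2 ratio of 2.54 (2.25 to 2.83). Both genes have 3 exons. Gm17268 overlaps Ccl2 on the other strand and held 39 and 49 UMIs in all.

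The UMIs of both genes came from few cells. In DMSO, 17 cells held 50% of the Ccl2 UMIs and 2 cells held 50% of the Ccl7 UMIs. In DAB these numbers were 70 and 10 cells. The counting intervals do not cover which cells happened to be sampled. This limit holds for other ligands too. In DMSO and DAB, 50% of the UMIs lay in 33 and 165 cells for Ccl4 and in 45 and 22 for Ccl17. For Ccl22 these numbers were 26 and 21 cells, and for Ccl24 96 and 70. Without the 10 cells richest in the gene in each library, the log2 ratio was 2.81 for Ccl2 (2.71 to 2.90) and 3.80 for Ccl7 (3.20 to 4.48), the latter from 23 DMSO and 491 DAB UMIs. The step took out 41.0% of the DMSO and 19.3% of the DAB UMIs of Ccl2, and 79.3% and 50.1% of those of Ccl7. Taking more from DMSO raises the ratio, so these larger ratios are not read as support for the direction.

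Ccl3 and Ccl4, the macrophage inflammatory proteins, lie in opposite orientation with 13228 bases between them. Ccl3 (ENSMUSG00000000982, chromosome 11, 83647844 to 83649355, minus strand) was at 168 CPM in DMSO and 215 CPM in DAB, a log2 ratio of 0.35 (0.33 to 0.38). Ccl4 (ENSMUSG00000018930, 83662584 to 83664683, plus strand) was at 141 and 240 CPM, a log2 ratio of 0.77 (0.74 to 0.80). Only Ccl4 thus passed the threshold of 0.5. In the mean over cells of each cell's CPM, where every cell weighs the same, the log2 ratios were 0.68 for Ccl3 and 1.53 for Ccl4.

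Ccl6 and Ccl9, the Ccr1 ligands, are adjacent as well, 9245 bases apart on the minus strand of chromosome 11, and both have 4 exons. Ccl6 (ENSMUSG00000018927, 83587882 to 83593087) was at 5506 CPM in DMSO and 7790 CPM in DAB. Its log2 ratio of 0.50 (0.496 to 0.505) sits on the threshold, so the direction read for Ccl6 depends on that threshold. Ccl9 (ENSMUSG00000019122, 83572919 to 83578636) was at 583 and 649 CPM, a log2 ratio of 0.15 (0.14 to 0.17). E230016K23Rik overlaps Ccl6 on the other strand, was at 54.1 and 48.6 CPM, and had the pattern over clusters that was most like that of Ccl6. The study's methods give the 5′ R2 chemistry setting, with which reads are counted by strand.

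Ccl17 (ENSMUSG00000031780, chromosome 8, 94810453 to 94812036, plus strand) showed the largest difference in the downward direction among the 9. It was at 281 CPM in DMSO (278 to 285) and at 36.7 CPM in DAB (35.7 to 37.7), a log2 ratio of -2.94 (-2.98 to -2.89). Ccl22 (ENSMUSG00000031779, 94745590 to 94751699, plus strand), which lies 58753 bases before it with Cx3cl1 between, was at 74.6 and 17.0 CPM, a log2 ratio of -2.13 (-2.20 to -2.06). Ccl24 (ENSMUSG00000004814, chromosome 5, 135569937 to 135573049, minus strand) was at 208 and 128 CPM, a log2 ratio of -0.69 (-0.72 to -0.67). Among the 9, the 3 genes that were lower lie outside chromosome 11, where the 4 that were higher and Ccl3 and Ccl9 are found. This split does not extend to further ligands: Ccl8 (34 and 5 UMIs) and Ccl12 (63 and 57 UMIs) lie between Ccl7 and Ccl9 and were lower.

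Promoter sequences were at hand for 5 of the 9 genes, from RefSeq (GRCm38.p6). In the 300 bases around the start (250 before, 50 after) they were searched on both strands for kappaB (GGANTTTCC or GGGNNTTCC), AP-1 (TGANTCA), CRE (TGACGTCA), the amino acid response element (TGATGNAA), C/EBP (TTGCNNAA), PU.1 (GAGGAAG) and STAT palindromes with 3 (TTCNNNGAA) or 4 bases between (TTCNNNNGAA). The Ccl17 and Ccl9 promoters were the 2 that held a match. They are shown because Ccl17 was the ligand with the lowest ratio and Ccl9 a ligand for which none was read, with the matched letters in capitals, from 250 bases before the start to the last base before it (chr8:94810203-94810452, plus strand, and chr11:83578637-83578886, minus strand).
Ccl17: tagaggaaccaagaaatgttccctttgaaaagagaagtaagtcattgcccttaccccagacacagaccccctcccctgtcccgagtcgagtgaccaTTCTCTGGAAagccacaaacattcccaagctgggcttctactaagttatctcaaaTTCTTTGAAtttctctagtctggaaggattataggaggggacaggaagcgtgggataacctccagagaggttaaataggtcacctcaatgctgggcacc
Ccl9: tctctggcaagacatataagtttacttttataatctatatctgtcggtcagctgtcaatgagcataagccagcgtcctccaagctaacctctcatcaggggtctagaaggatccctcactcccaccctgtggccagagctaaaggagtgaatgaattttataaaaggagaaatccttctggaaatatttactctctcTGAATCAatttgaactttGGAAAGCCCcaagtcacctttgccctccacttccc

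The Ccl17 promoter held a STAT palindrome of each spacing, at -154 to -145 (4 between) and at -99 to -91 (3 between), where -1 is the last base before the start. Of 32851 promoters of the same length, 6.95% and 8.30% hold these letters. The Ccl9 promoter held an AP-1 match at -53 to -47 and a kappaB match on the other strand at -35 to -27, letters found in 7.81% and 7.0% of promoters. No match to these letters was found in the windows of Ccl3, Ccl6 and Ccl22, and none of the 5 held a CRE (1.79% of promoters), an amino acid response element (3.97%), a C/EBP (10.8%) or a PU.1 match (13.6%). A match is a string of letters and not a measured binding site.

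The share of cells in which a ligand was detected was compared after thinning every cell to 1500 UMIs, which left 8596 DMSO and 10187 DAB cells. Ccl4 was found in 5.18% (4.72 to 5.67) of cells in DMSO against 14.8% (14.1 to 15.5) in DAB, and Ccl2 in 1.54% (1.29 to 1.82) and 5.41% (4.98 to 5.87). Ccl3 was found in 14.2% and 20.4% of cells, and Ccl9 in 35.0% and 45.5%. These 4 ligands were thus detected in more cells of the DAB library, Ccl3 and Ccl9 included, for which no direction was read in CPM. Ccl6 was detected in 81.7% (80.9 to 82.5) and 82.4% (81.7 to 83.2) of cells, with overlapping intervals. Ccl17 was found in 4.27% (3.85 to 4.72) and 1.34% (1.13 to 1.59), Ccl22 in 2.05% (1.76 to 2.37) and 1.0% (0.82 to 1.21), and Ccl24 in 6.25% (5.74 to 6.78) and 4.27% (3.89 to 4.68). Ccl7 remained rare, in 0.14% and 0.50% of cells. Without thinning, the Ccl4 shares were 12.3% and 28.7%.

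B cell-like cells (median 3976 UMIs per cell in DMSO and 4828 in DAB) served as a rough guide to free RNA. For Ccl4 the guide is poor: its DMSO level in mature PMN-like, intermediate granulocyte-like and granulocyte progenitor-like cells lay below the B cell-like level. The same held in mature monocyte-like and activated dendritic-like DMSO cells. Whether the Ccl4 UMIs of these DMSO cells were expression or free RNA was not tested, and ratios there compare levels only. The 47 Ccl4 UMIs of B cell-like DMSO cells lay in 5.67% of these cells before thinning, and their source was not tested. In B cell-like cells Ccl6 was found in 3.88% of 129 DMSO and in 22.5% of 173 DAB cells after thinning, and its level was 69.0 and 171 CPM. The shares of Ccl3 (1.55% and 1.73%), Ccl4 (3.10% and 1.16%), Ccl9 (0.78% and 1.73%) and Ccl22 (0.78% and 1.73%) rested on 1 to 4 cells. Ccl2 and Ccl7 were found in 0 of 129 and 0 of 173 thinned B cell-like cells (upper ends of the exact intervals 2.82% and 2.11%). The whole-library shares of Ccl7 and Ccl22 lay within the exact interval of the B cell-like share in both libraries. So did those of Ccl2 and Ccl4 in DMSO and of Ccl17 and Ccl24 in DAB. Those intervals are wide because few B cell-like cells were sampled, so a rare gene falls inside them whatever its source. The comparison cannot tell expression from free RNA for these shares, and they are not read as expression across the library. The levels by class carry the comparison for these genes. Of the 5 ligands counted in B cell-like cells, 1 (Ccl6, log2 ratio 1.31, 0.83 to 1.80) passed the rule, beside 23.9% of all genes there.

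The classes in which each ligand was highest differed by ligand. Levels by class are drawn in the colour map, and the cells that held the UMIs in the bar chart.

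**Figure D2:**
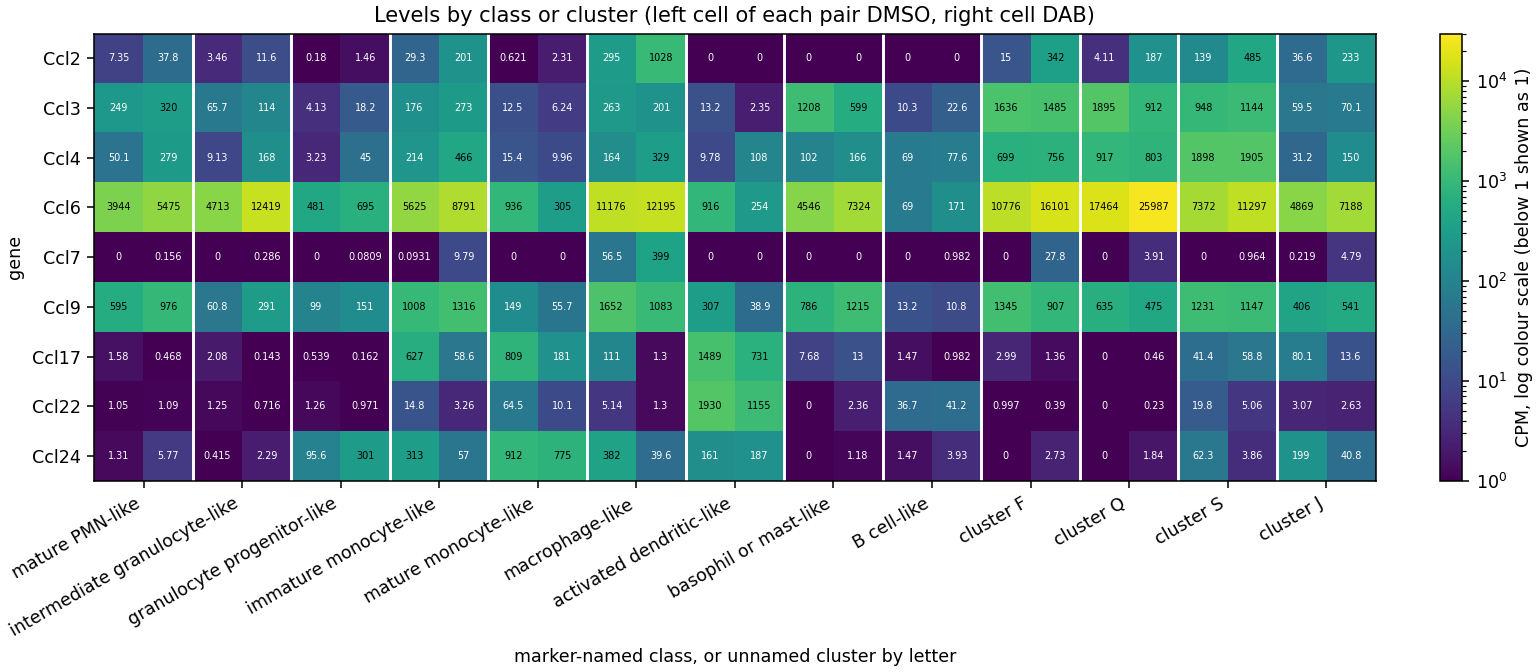
Level of each ligand (rows, CPM, log colour scale with the values printed) in marker-named classes and in 4 unnamed clusters, with DMSO left and DAB right in each pair. Ccl2 and Ccl7 are highest in macrophage-like cells, Ccl17 and Ccl22 in activated dendritic-like cells, Ccl24 in mature monocyte-like cells, and Ccl4 in cluster S, in both libraries, while Ccl3 is highest in cluster Q in DMSO and in cluster F in DAB.

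In macrophage-like cells (169 DMSO and 120 DAB cells, led by Pf4 and the complement genes C1qa, C1qb and C1qc), Ccl2 was at 295 CPM in DMSO and 1028 CPM in DAB, a log2 ratio of 1.80 (1.66 to 1.95). Ccl7 was at 56.5 and 399 CPM in the same cells, a log2 ratio of 2.82 (2.51 to 3.14). After thinning, 30.1% of DMSO and 50.9% of DAB macrophage-like cells had a Ccl2 UMI and 6.13% and 26.3% a Ccl7 UMI. These cells held 89.2% of the Ccl7 UMIs of the DMSO library and 62.5% of those of the DAB library. Of 8 ligands counted in this class, 6 passed the rule (20.9% of all genes): Ccl2, Ccl4 and Ccl7 were higher and Ccl9, Ccl17 and Ccl24 lower. Ccl4 was at 164 and 329 CPM and Ccl9 at 1652 and 1083 CPM. Ccl17 was at 111 CPM in DMSO and at 1.30 CPM in DAB, where 2 UMIs were counted (log2 ratio -6.42, -9.48 to -4.55), and Ccl24 was at 382 and 39.6 CPM, a log2 ratio of -3.27 (-3.67 to -2.89). When the libraries were not aligned before clustering, no cluster took the macrophage-like name, and among named classes Ccl2 and Ccl7 were then highest in immature monocyte-like cells.

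The higher Ccl2 level was not limited to macrophage-like cells. It was read in all 5 classes in which Ccl2 could be counted and in 17 of 20 clusters, with none in the other direction. A class or cluster was counted from 20 UMIs over both libraries, so several entered only through DAB, where Ccl2 was high. These counts therefore lean toward higher and are not read as support. Immature monocyte-like cells and cluster J, where Ccl2 was higher, passed that minimum in DMSO alone, with 629 and 167 UMIs. The lowest cluster log2 ratio of Ccl2 was -1.09, with no direction read. In mature monocyte-like cells Ccl2 was read as higher in 9 of 11 alternatives. In cluster Q (led by Mmp13) Ccl2 was at 4.11 CPM in DMSO, from 3 UMIs, and at 187 CPM in DAB. In cluster F (led by Gpnmb and Atp6v0d2) it was at 14.96 and 342 CPM. In cluster J, led by the mitosis genes Ube2c, Cenpf and Birc5, it was at 36.6 and 233 CPM, and this cluster held 24.3% of the Ccl2 UMIs in DAB against 9.18% in DMSO. Outside macrophage-like cells Ccl7 was scarce, with 0 UMIs in DMSO and 143 in DAB in cluster F, where it was at least 9.31-fold higher against a floor of 3 UMIs per library. In activated dendritic-like, basophil or mast-like and B cell-like cells Ccl2 gave 0 UMIs in both libraries.

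**Figure D3:**
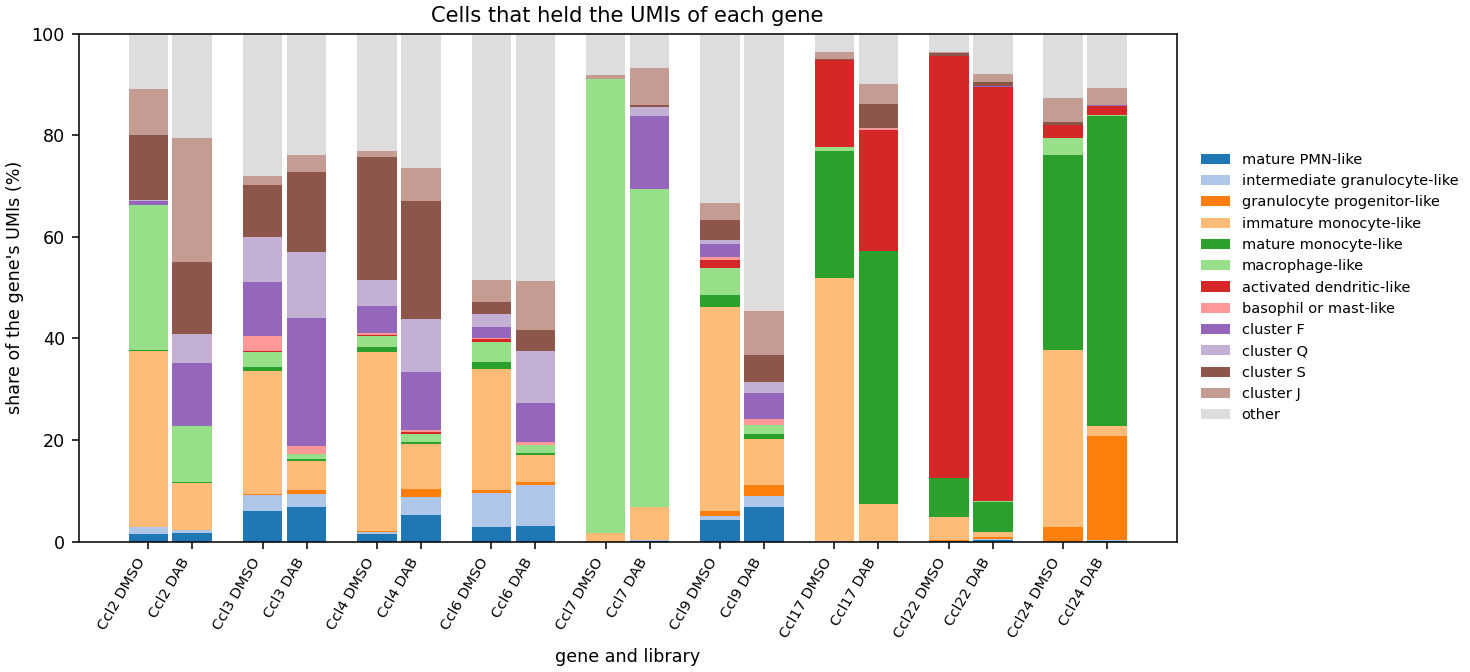
Share of each ligand's UMIs (%) held by marker-named classes and by clusters F, Q, S and J, with all remaining cells in grey, for each ligand and library. Activated dendritic-like cells held 83.0% of the Ccl22 UMIs in DMSO and 81.5% in DAB, and immature monocyte-like cells held 51.8% and 7.26% of the Ccl17 UMIs.

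Immature monocyte-like cells, which express Mmp12 and Lpl, made up 13.2% of DMSO cells (1189) and 3.36% of DAB cells (352). Of the 9 ligands 8 passed the rule in them (28.4% of all genes): Ccl2, Ccl3, Ccl4, Ccl6 and Ccl7 were higher, and Ccl17, Ccl22 and Ccl24 lower. Ccl2 was at 29.3 and 201 CPM, a log2 ratio of 2.78 (2.64 to 2.92). Ccl7 gave 2 DMSO and 63 DAB UMIs, with 6.72 (4.805 to 9.79) as its log2 ratio. Ccl4 was at 214 and 466 CPM, with a log2 ratio between 0.15 and 1.44 over the alternatives that was read as higher in 8 of 11, and Ccl3 was at 176 and 273 CPM. Ccl17 stood at 627 CPM in DMSO and at 58.6 CPM in DAB, a log2 ratio of -3.42 (-3.57 to -3.27), and it was detected in 10.3% and 3.14% of these cells after thinning. Ccl24 was at 313 and 57.0 CPM, a log2 ratio of -2.45 (-2.61 to -2.30). The ratio of Ccl3 here lay between -0.31 and 1.17 over the alternatives, and was below 0 in 3 of 11, and Ccl22, from 318 and 21 UMIs, had a log2 ratio of -2.18 that became 0.40 when the chemokine genes were kept in the clustering. The Ccl22 level of these cells lay below the B cell-like level in both libraries, so its direction is not read as expression.

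Mature monocyte-like cells, which carry MHC class II genes (403 DMSO and 488 DAB cells), held most of the Ccl24 UMIs in DAB. Ccl24 was at 912 CPM in DMSO and 775 CPM in DAB, a log2 ratio of -0.24 (-0.28 to -0.19), for which no direction was read, and was detected in 43.8% and 36.6% of thinned cells. Ccl17 was at 809 and 181 CPM, a log2 ratio of -2.16 (-2.23 to -2.09), and Ccl22 at 64.5 and 10.1 CPM, a log2 ratio of -2.68 (-2.95 to -2.41). In DAB this Ccl22 level lay below the B cell-like level, which came from 25 DMSO and 42 DAB UMIs, and is not read as expression. Of 8 ligands counted, 7 passed the rule (34.9% of all genes), with Ccl2 higher, from 5 and 33 UMIs, and Ccl3, Ccl4, Ccl6, Ccl9, Ccl17 and Ccl22 lower. Ccl2, Ccl3 and Ccl4 were each detected in at most 1.74% of these cells after thinning. Ccl4, at 15.4 and 9.96 CPM, lay below the B cell-like level in both libraries and Ccl3, at 12.5 and 6.24 CPM, below it in DAB. Neither is read as expression, although for Ccl4 the guide is poor and the source of its UMIs was not tested. Ccl6 was at 936 and 305 CPM and Ccl9 at 149 and 55.7 CPM. The direction of Ccl4, from 124 and 142 UMIs, turned in 5 of 11 alternatives.

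Activated dendritic-like cells (175 DMSO and 104 DAB cells), which express Ccr7 and Fscn1, carried the highest levels of Ccl17 and Ccl22 of all classes in both libraries. Ccl22 was at 1930 CPM in DMSO and 1155 CPM in DAB, a log2 ratio of -0.74 (-0.82 to -0.67), and was detected in 72.3% and 62.5% of thinned cells. Ccl17 was at 1489 and 731 CPM, a log2 ratio of -1.03 (-1.12 to -0.93), and was detected in 49.1% and 45.2%. The difference within these cells was thus smaller than over the whole library for both genes. They made up 1.94% (1.66 to 2.24) of the DMSO library and 0.993% of the DAB library (0.81 to 1.202). Of 7 ligands counted, 6 passed the rule (23.7% of all genes): Ccl4 was higher, at 9.78 and 108 CPM, and Ccl3, Ccl6, Ccl9, Ccl17 and Ccl22 were lower. The Ccl4 UMIs lay in few cells, 1 of 173 DMSO and 3 of 104 DAB cells after thinning, and the DMSO level lay below the B cell-like level. Ccl3 lay below that level in DAB, where it was found in 0 of 104 thinned cells, so it is not read as expression. Ccl9 was at 307 and 38.9 CPM, and Ccl6 at 916 and 254 CPM. Without doublet removal, Ccl3 (39 and 4 UMIs) turned from -2.48 to 1.52 and Ccl6 from -1.85 to 0.27.

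Ccl4 was highest in 3 clusters without a class name, which also carried the highest Ccl3 levels, beside basophil or mast-like cells. Cluster F held 204 DMSO and 880 DAB cells, with Ccl3 at 1636 and 1485 CPM and Ccl4 at 699 and 756 CPM. The Mmp13-expressing cluster Q held 88 and 418 cells, with Ccl3 at 1895 and 912 CPM, a log2 ratio of -1.06, and Ccl4 at 917 and 803 CPM. Cluster S, led by Spp1, Csf1 and Il1a, held 120 and 274 cells, with Ccl3 at 948 and 1144 CPM and Ccl4 at 1898 and 1905 CPM. No direction was read for the Ccl4 level in any of the 3. Its share of thinned cells was 21.3% and 37.6% in F, 14.9% and 38.0% in Q and 30.3% and 37.5% in S. Cluster F made up 2.26% of DMSO and 8.40% of DAB cells and held 10.6% and 25.1% of the Ccl3 UMIs. Cluster S held 24.3% and 23.3% of the Ccl4 UMIs. Cluster Q also had the highest Ccl6 level, 17464 CPM in DMSO and 25987 CPM in DAB. Ccl17 was higher in cluster S (69 and 244 UMIs), but its log2 ratio of 0.508 sits close to the threshold of 0.5. Its share of thinned cells in S was lower in DAB, at 3.36% and 1.47%. Ccl17 was also higher in cluster U (led by Retnla and Fn1, 0 and 116 UMIs). There it was found in 0.39% of 256 thinned DAB cells, so these UMIs lay in few cells. Of the 12 clusters in which Ccl17 was counted, it was higher in these 2 and lower in 9.

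In the named mature PMN-like and intermediate granulocyte-like classes Ccl4 was low in DMSO, below the B cell-like level, and higher in DAB. No direction was read for it in unnamed clusters D, F and Q, whose nearest marker list was mature PMN. Cluster D (led by Car4 and Cd14, 796 and 495 cells) held 1308 and 870 Ccl4 UMIs. In cluster A (led by S100a9 and Ly6g), nearest to the intermediate granulocyte list, Ccl4 was higher, from 121 and 1059 UMIs. Mature PMN-like cells (clusters C and G, 1004 DMSO and 1479 DAB cells; G held 222 and 833 of them) had Ccl4 at 50.1 and 279 CPM, a log2 ratio of 2.48 (2.26 to 2.70), and it was detected in 4.59% and 15.5% of thinned cells. Ccl3 was at 248.6 and 320 CPM, a log2 ratio of 0.36 (0.25 to 0.48), for which no direction was read. Of 6 ligands counted there, 4 passed the rule (24.2% of all genes), all higher: Ccl2, Ccl4, Ccl9 and Ccl24, the last from 5 and 37 UMIs. Within its clusters, Ccl2 and Ccl4 were higher in both C and G, Ccl3 and Ccl9 only in C, and Ccl24 in neither. In intermediate granulocyte-like cells, which express Ltf and Camp, Ccl4 was at 9.13 and 168 CPM, a log2 ratio of 4.20 (3.84 to 4.58), Ccl6 at 4713 and 12419 CPM and Ccl9 at 60.8 and 291 CPM. All 5 ligands counted in this class (Ccl2, Ccl3, Ccl4, Ccl6 and Ccl9) were higher, beside 43.8% of all genes that passed the rule in either direction. Most DMSO cells of this class were in cluster H (845 and 195 cells) and most DAB cells in cluster O (122 and 413), so the class values combine levels within clusters with a different mix of clusters. Within each cluster Ccl4 was higher, with log2 ratios of 2.89 (2.38 to 3.44) in H and 2.92 (2.35 to 3.56) in O. Ccl6 and Ccl9 were higher in H, at 0.88 (0.85 to 0.91) and 1.10 (0.71 to 1.47), but in O no direction was read for either (-0.02 and 0.15). Ccl3 was lower in O, at -0.76 (-0.99 to -0.53), with no direction read in H (0.28), and for the whole class it was read as higher in 4 of 11 alternatives. Ccl2 was higher in O, from 0 and 76 UMIs, and had 25 and 5 UMIs in H, where no direction was read.

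Granulocyte progenitor-like cells (267 DMSO and 394 DAB cells), which express Elane and Mpo, showed 5 of 5 ligands higher (33.2% of all genes passed the rule). Ccl24 was at 95.6 and 301 CPM, a log2 ratio of 1.66 (1.53 to 1.79), and these cells held 2.77% of the Ccl24 UMIs in DMSO and 20.5% in DAB. Ccl4 was at 3.23 and 44.98 CPM and Ccl3 at 4.13 and 18.2 CPM, each in at most 2.30% of thinned cells. These levels lay below those in B cell-like cells (Ccl4 at 69.0 and 77.6 CPM, Ccl3 at 10.3 and 22.6 CPM). For Ccl3 the direction is therefore not read as expression. For Ccl4 the guide is poor and the source of its UMIs was not tested, so its direction is not read as expression either. These directions depended on how the cells were clustered: the Ccl24 log2 ratio in this class was below -4 in 4 of 11 alternatives, and that of Ccl4 lay between -0.15 and 4.54. Basophil or mast-like cells (51 and 85 cells), which express Mcpt8 and Prss34, carried Ccl3 at 1208 and 599 CPM, a log2 ratio of -1.012 (-1.195 to -0.83), in 78.0% and 60.5% of thinned cells. In them 4 of 4 ligands counted passed the rule (19.7% of all genes), with Ccl3 lower and Ccl4, Ccl6 and Ccl9 higher.

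**Figure D4:**
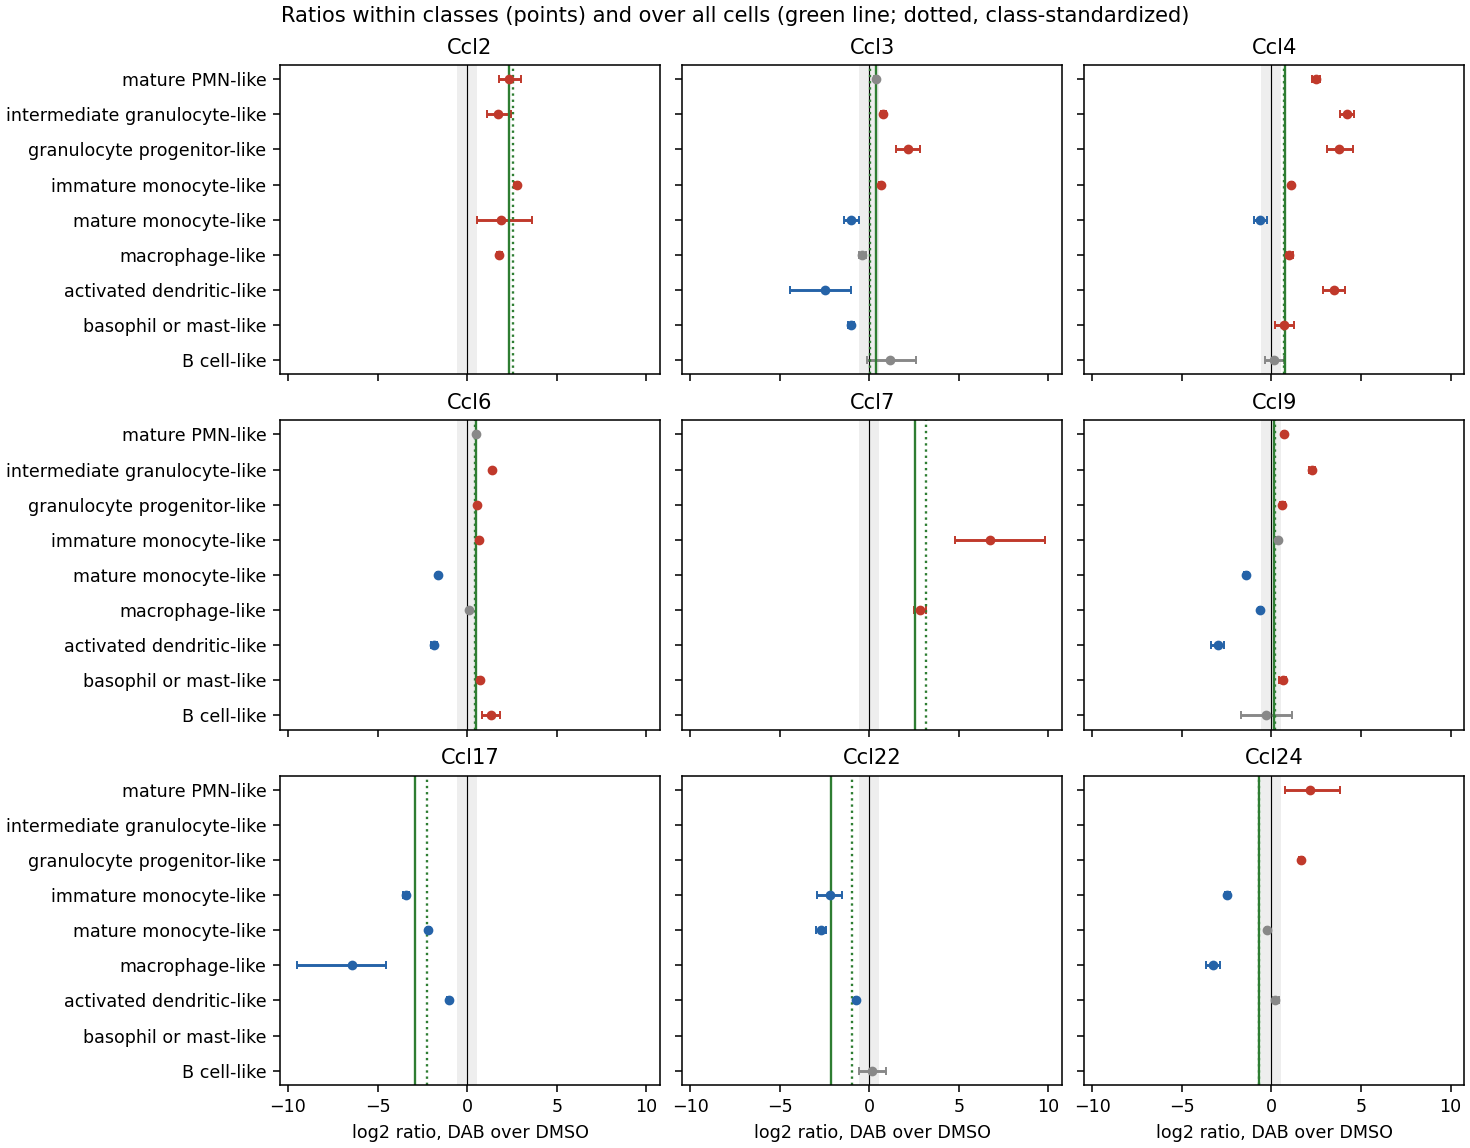
Log2 ratio (DAB over DMSO) of each ligand in each class with at least 20 UMIs, with exact 95% intervals for counting error; red points were read as higher, blue as lower and grey as neither, the grey band spans -0.5 to 0.5, and the green lines give the ratio over all cells (solid) and the class-standardized ratio (dotted). Ccl2 lies right of 0 in every class shown and Ccl17 left of 0, whereas Ccl3, Ccl4, Ccl6, Ccl9 and Ccl24 have points on both sides. Ccl22 lies right of 0 only in B cell-like cells (0.17), where no direction was read. Unnamed clusters are not drawn, and Ccl17 was higher in S (log2 ratio 0.508, close to the threshold) and U (UMIs in few cells) among them.

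Ratios over all cells combine the levels within classes with the shares of the classes. When each class and unnamed cluster was given its mean share of UMIs over both libraries, the log2 ratio was 2.53 for Ccl2, 3.18 for Ccl7, 0.71 for Ccl4 and 0.42 for Ccl6, beside 2.35, 2.54, 0.77 and 0.50 over all cells. For Ccl3 it was 0.02, beside 0.35, and for Ccl9 0.21, beside 0.15. Ccl22 changed most by this step, from -2.13 to -0.94, and Ccl17 went from -2.94 to -2.23, while Ccl24 stayed at -0.69. The standardized ratios of Ccl17 and Ccl22 were -0.33 and -0.32 when the libraries were not aligned before clustering, and that of Ccl17 was -0.94 when the chemokine genes were kept, so how much of these differences lay within classes depended on the clustering.

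The balance within pairs of neighbouring ligands also differed. These shares are of UMIs and are compared between libraries, not read as ratios of molecules between genes. Ccl3 made up 54.3% of the Ccl3 and Ccl4 UMIs in DMSO (53.8 to 54.9) and 47.2% in DAB (46.8 to 47.6). The difference was larger in mature PMN-like cells, at 83.2% (80.9 to 85.3) and 53.4% (51.8 to 55.0), and in intermediate granulocyte-like cells, at 87.8% (84.7 to 90.4) and 40.4% (38.2 to 42.6). It ran the other way in cluster S, at 33.3% (31.96 to 34.7) and 37.5% (36.7 to 38.4). Among thinned cells, 2.63% of DMSO and 8.40% of DAB cells held both Ccl3 and Ccl4, and 50.8% and 56.7% of Ccl4-positive cells held Ccl3.

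Ccl2 made up 94.3% of the Ccl2 and Ccl7 UMIs in DMSO (93.1 to 95.2) and 93.5% in DAB (93.1 to 93.9), but in macrophage-like cells 83.9% (80.8 to 86.7) and 72.0% (70.1 to 73.9). Of the DAB macrophage-like cells with a Ccl7 UMI, 86.7% also had one of Ccl2. Ccl6 made up 90.4% and 92.3% of the Ccl6 and Ccl9 UMIs and lay between 74.9% and 98.7% in the 9 named classes. Ccl17 made up 79.0% of the Ccl17 and Ccl22 UMIs in DMSO (78.6 to 79.5) and 68.3% in DAB (67.2 to 69.4). In activated dendritic-like cells the Ccl17 share was 43.5% and 38.8%, whereas in immature monocyte-like cells it was 97.7% and 94.7% and in mature monocyte-like cells 92.6% and 94.7%. In DMSO, 42.8% of thinned activated dendritic-like cells held both Ccl17 and Ccl22, and in DAB 28.8%.

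**Figure D5:**
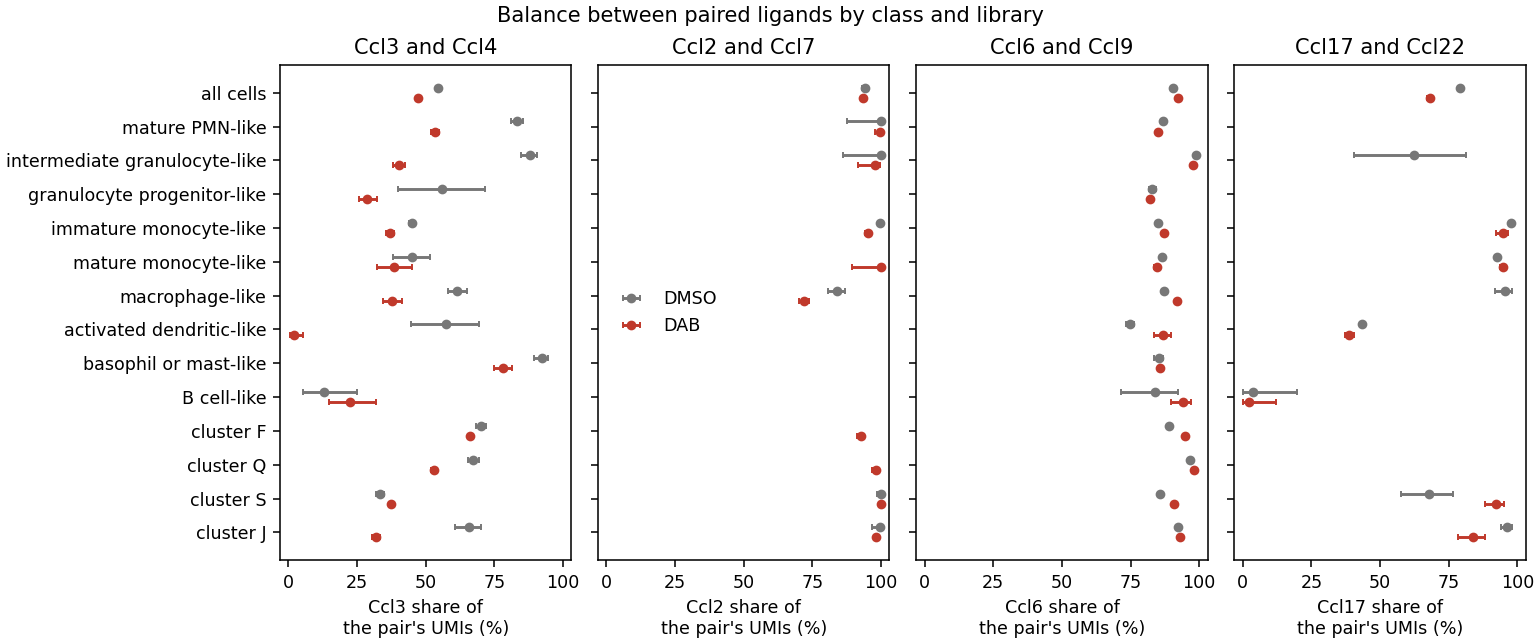
Share of the first ligand in the UMIs of each neighbouring pair (%), over all cells, by class and in clusters F, Q, S and J, for DMSO (grey) and DAB (red), with exact 95% intervals for counting error. The Ccl3 share is lower in DAB in mature PMN-like and intermediate granulocyte-like cells, and the Ccl17 share is far lower in activated dendritic-like than in monocyte-like cells in both libraries.

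The genes whose levels followed each ligand most closely were sought over 48 points (24 clusters in each library) among 9542 genes, by Pearson's r of log2(CPM + 10). The points share 2 libraries, and the r values are a description. Ccl4 was closest to Ccl3 (0.75), then to Plek and Csf1, and Ccl3 to Rragc, Rmc1 and Hgsnat (0.81 each). Ccl6 and Ccl9 both had Ctsd, a lysosomal protease, and Pttg1ip among their 3 closest genes (0.87 to 0.90 for Ccl6, 0.79 and 0.81 for Ccl9), and Ccl9 was closest to the complement receptor gene C3ar1 (0.85). Ccl2 was closest to Ch25h (0.88), an oxysterol-forming enzyme, then to Pf4 and Dhrs9, and Ccl7 to Ms4a8a (0.93) and Treml1. Ccl17 was closest to Mras (0.92), Cxcl16 and Plet1, Ccl22 to the nuclear receptor gene Nr4a3 (0.90), Dnah2 and Ramp3, and Ccl24 to Ppfia4 (0.87), 4930512J16Rik and Gm15880. Among the 9 ligands, Ccl6 and Ccl9 had an r of 0.77, Ccl17 and Ccl24 0.73, Ccl17 and Ccl22 0.73 and Ccl2 and Ccl7 0.65, whereas Ccl6 and Ccl22 had -0.57.

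Other ligands and receptors of the family were counted from a list of 12 further CC ligands and 15 receptors. Of the 6 further ligands with at least 20 UMIs, 5 were lower in DAB (16.7% of all genes) and none higher (13.6%). Ccl5, which attracts T cells and monocytes, was at 49.8 and 17.1 CPM over all cells, a log2 ratio of -1.54 (-1.61 to -1.47), but in activated dendritic-like cells at 1338 and 1200 CPM, with a log2 ratio of -0.16 (-0.23 to -0.08). The other 4 (Ccl8, Ccl12, Ccl26 and Ccl27a) had at most 102 UMIs in a library. Of 12 receptors counted, 4 were higher, beside the same 13.6%.

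Ccr2, the receptor of Ccl2 and Ccl7, was at 105 CPM in DMSO and 29.9 CPM in DAB, a log2 ratio of -1.81 (-1.86 to -1.75), and in immature monocyte-like cells at 200.1 and 23.5 CPM, a log2 ratio of -3.09 (-3.34 to -2.86). Ccr2 was lower in 5 of 7 classes. It was higher in intermediate granulocyte-like cells as a whole but in neither of their clusters, H and O, and in basophil or mast-like cells no direction was read. Ccr1, the receptor of Ccl6 and Ccl9, was at 181 and 201 CPM, with no direction read (0.15). The receptor of Ccl17 and Ccl22, Ccr4, was at 1.60 and 2.26 CPM, and that of Ccl24, Ccr3, at 0.44 and 1.38 CPM. Ccr7, which marks activated dendritic cells, was at 680 and 1368 CPM in activated dendritic-like cells, a log2 ratio of 1.009 (0.92 to 1.10), in the class where Ccl17 and Ccl22 were lower. The receptors Ccr6, Ccr10 and Ackr1 were higher from at most 200 UMIs.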

How the data were processed

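The authors deposited unnormalized UMI counts for every gene and barcode, made with Cell Ranger 7.0.0 on mm10 and without the authors' later cell filters. From these counts, cells with up to 10% mitochondrial UMIs and within 4 median absolute deviations in UMIs and genes were kept, and doublets were removed by a score against simulated doublets (768 of 9855 DMSO and 1066 of 11631 DAB barcodes). The score called 44.5% and 50.25% of 400 planted doublets, so doublets remain. The libraries were aligned by mutual nearest neighbours and clustered (Leiden resolution 0.9, Python 3.11.15, leidenalg 0.10.2, scipy 1.17.1) with cell cycle scores regressed out. Groups came from the sample labels.

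With 1 library per condition, intervals are exact Poisson, Clopper-Pearson or conditional binomial at 95%, cover counting error only, and give no p-value. The interval method was run on simulated counts that held counting error alone, so that run does not bear on UMIs gathered in few cells. The genes described are the 9 ligands, the listed ligands and receptors with at least 20 CPM in a class of at least 50 cells, and the 3 genes most like each ligand. Ccr3, Ccr4, Ccr6, Ccr10, Ackr1 and the scarce further ligands were named outside that rule, after their values were seen. The members and lists were chosen with earlier results of these data known. Alternatives covered filters, doublets, scaling, weighting, the threshold and the clustering. Some genes of the lists are not reported here.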

Additional observations from a re-analysis of the deposited data

Results flagged for a closer look

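For 5 ligands the ratio of DAB to DMSO was read as higher in some classes and lower in others, and the differences between classes were not tested. The log2 ratio of Ccl3 was 2.14 in granulocyte progenitor-like and -2.48 in activated dendritic-like cells, the latter from 39 and 4 UMIs. That of Ccl4 was 4.20 in intermediate granulocyte-like and -0.63 in mature monocyte-like cells. Ccl3 in granulocyte progenitor-like and Ccl4 in mature monocyte-like cells were not read as expression. Ccl3 in activated dendritic-like DAB cells also lay below the B cell-like level. The Ccl3 contrast thus rests on such values at both ends, and the Ccl4 contrast in part. Ccl6 stood at 1.40 in intermediate granulocyte-like and -1.85 in activated dendritic-like cells, and Ccl9 at 2.26 and -2.98 in the same classes. The 3 values in intermediate granulocyte-like cells exceeded those in either of its clusters: in cluster H Ccl4 was at 2.89, Ccl6 at 0.88 and Ccl9 at 1.10, and in cluster O Ccl4 was at 2.92 while no direction was read for Ccl6 and Ccl9. Ccl24 was at 2.14 in mature PMN-like cells, from 5 and 37 UMIs, and at -3.27 in macrophage-like cells. The Ccl3 value in granulocyte progenitor-like cells, the Ccl3 and Ccl6 values in activated dendritic-like cells and the Ccl4 value in mature monocyte-like cells turned under at least 1 alternative.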

How the results depend on the processing

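Over all cells, none of 90 alternative log2 ratios of the 9 ligands turned. At a threshold of 1, 2 ligands (Ccl2 and Ccl7) were read as higher in place of 4 and 2 (Ccl17 and Ccl22) as lower in place of 3, and Ccl6, between 0.42 and 0.53, was read as higher in 7 of 10 alternatives. Within classes, 30 of 616 alternative ratios turned, counted only where a direction had been read at first. Pairs without a direction are among the 616 but could not count, although some changed sign. Ccl9 in immature monocyte-like cells, for example, lay between -0.27 and 0.65. The alternative with a threshold of 1 uses the same ratios, so none of its ratios could turn, over all cells or within classes. Without alignment 17 rather than 28 ligand and class pairs were higher, in 8 classes, and 0 rather than 3 standardized ratios were lower. Also without alignment, the ratios in granulocyte progenitor-like cells became -2.67 (Ccl3), -0.080 (Ccl4), -0.66 (Ccl6), -0.38 (Ccl9) and -6.15 (Ccl24), Ccl3 became -0.20 in immature monocyte-like and -0.25 in intermediate granulocyte-like cells, and Ccl4 1.05 in mature monocyte-like cells. At resolution 0.5 the progenitor-like values were -1.55 (Ccl3), -0.15 (Ccl4), -1.51 (Ccl6), -1.17 (Ccl9) and -4.51 (Ccl24), Ccl3 was -0.31 in immature and 0.55 in mature monocyte-like cells, and Ccl4 1.59 in the latter. At resolution 1.5 Ccl9 was -1.61 and Ccl24 -5.58 in progenitor-like cells, and Ccl3 -0.076 in immature monocyte-like cells. With chemokine genes kept, progenitor-like cells gave -1.96 (Ccl3), -1.52 (Ccl6), -0.57 (Ccl9) and -4.06 (Ccl24), Ccl22 was 0.40 in immature and Ccl4 0.60 in mature monocyte-like cells. Without cell cycle regression Ccl3 was -0.16 in intermediate granulocyte-like cells. Without doublet removal Ccl3 was 1.52 and Ccl6 0.27 in activated dendritic-like cells and Ccl4 0.64 in mature monocyte-like cells, and without the cell filter the last was 0.56. The cause was not tested. Leaving out clusters I and P, shared barcodes or the 10 richest cells was chosen after seeing the data. No paired analysis was possible because each condition had 1 library.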
